A study of Mus musculus with 2 samples.

Results

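The vitamin D receptor, its dimer partners and the genes that make, carry and break down its hormone were examined for binding by the receptor itself in the fetal mouse heart. The 10 genes were Vdr, the retinoid X receptors Rxra, Rxrb and Rxrg, the hydroxylases Cyp24a1, Cyp27b1, Cyp2r1 and Cyp27a1, the carrier gene Gc and the sterol reductase gene Dhcr7, out of 21900 protein-coding genes with a RefSeq span. A peak was assigned to a gene when its summit lay inside the span or within 50 kb of either end. By that rule 44 of 23456 normal-diet peaks and 48 of 37661 deficient-diet peaks belonged to the 10 genes.

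The data are chromatin immunoprecipitation followed by sequencing (ChIP-seq), in which chromatin is pulled down with an antibody, here against VDR, and the recovered DNA is sequenced. Chromatin came from the left ventricle of E16.5 mouse embryos. One sample had a maternal diet that was normal, the other one that was deficient in vitamin D. The labels name no genotype, strain, sex or number of mothers or embryos, and no agent or manipulation beyond diet. Each diet has 1 library, so a difference between the lists has no replicate check, and no test between diets was possible. The intervals given for heights and for their ratios cover the counting error of the 2 libraries, not the spread between animals. They treat each count as if its site had not been picked by peak calling. The lists hold bound positions and no expression, so the labelled tissue could not be checked against marker genes.

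Vitamin D is made in skin from 7-dehydrocholesterol, the substrate that the Dhcr7 enzyme otherwise turns into cholesterol. Cyp2r1 and Cyp27a1 add a hydroxyl group at carbon 25, Cyp27b1 adds the next at carbon 1 to give the active hormone, and Cyp24a1 hydroxylates carbon 24, which starts its breakdown. The Gc protein carries these molecules in blood. The hormone binds VDR, which pairs with a retinoid X receptor on DNA, typically at 2 hexamers repeated in 1 direction with 3 bases between them. Cyp24a1 is the classical target that the receptor switches on, and Cyp27b1 is known to be held down in kidney when the hormone is plentiful.

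The lowest height called differed between the lists. The genome-wide background, in fragments covering a position and read as the lowest one recovered from each list, was 2.65 in the normal-diet library and 5.38 in the deficient-diet library. Heights are therefore given as the pileup, the number of fragments over the summit, and as enrichment, which here means the pileup divided by that library's genome-wide background. At the background level the lowest called pileup was 11 fragments (enrichment 4.15) in the normal-diet library, against 16 (2.97) in the other. The authors' -log10 q, the adjusted p of the peak caller, ranks peaks within a list.

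Peaks fell at 8 of the 10 genes in both lists, where 74.5% of protein-coding genes had a normal-diet summit by the same rule, 82.9% a deficient-diet summit and 69.0% both. Cyp2r1 and Gc had none within 50 kb in either list. The nearest summits to Cyp2r1 were, normal diet first, 133818 and 133785 bp away. Those nearest to Gc were 89493 and 69100 bp away. The median over the 10 genes was 4.5 normal-diet and 4 deficient-diet peaks, beside 2 and 3 over all protein-coding genes. Longer spans give larger windows, and the members' windows ran from 107 kb at Rxrb and Cyp27b1 to 187 kb at Rxra.

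In the full lists, Rxrb and Cyp27b1 had the most unequal counts among genes with at least 5 peaks in a list. Rxrb had 5 normal-diet and 12 deficient-diet peaks, and Cyp27b1 had 7 and 3. Vdr had 9 and 7, Rxra 9 and 10, Cyp27a1 6 and 5, Rxrg 4 and 4, Cyp24a1 3 and 3, and Dhcr7 1 and 4. The deficient-diet list is the longer one, with 37661 peaks against 23456. With lists of equal length the counts were 5 and 8 at Rxrb, 7 and 2 at Cyp27b1, and 9 and 4 at Vdr. How unequal the counts were over all protein-coding genes was not measured. A total of 9 or more normal-diet peaks, as at Vdr and Rxra, was reached by 3.77% of protein-coding genes, and 12 or more deficient-diet peaks, as at Rxrb, by 5.16%.

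**Figure D1:**
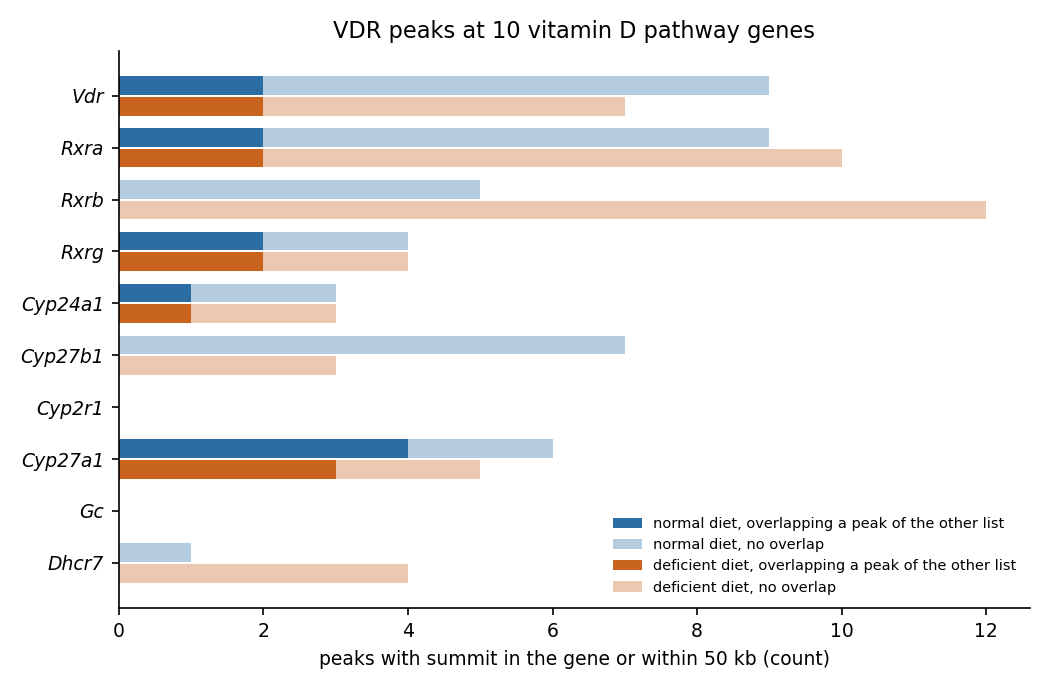
Number of VDR peaks (x axis, count) at each of the 10 genes (y axis), blue for the normal-diet and orange for the deficient-diet library; dark bars are peaks that overlap a peak of the other list, pale bars those that do not. Rxrb, Cyp27b1 and Dhcr7 have peaks in both lists but no dark bar, and Cyp2r1 and Gc have no peak.

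Most of these peaks were not in the member genes themselves. Of the 44 normal-diet summits 14 lay inside a member's span, and of the 48 deficient-diet summits 16 did. Another 24 and 27 lay in the span of a neighbouring gene, and 6 and 5 in no span. Inside the span, 5 genes had a normal-diet summit (Vdr, Rxra, Rxrg, Cyp27b1 and Cyp27a1; background 35.4%) and 5 a deficient-diet summit (Vdr, Rxra, Rxrb, Rxrg and Cyp27a1; background 43.8%). With peaks kept only where the member was the nearest protein-coding gene, 20 and 18 remained, at 5 genes in each list.

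The promoter table used here, from RefSeq build GRCm38.p6, the same build as the mm10 of the peak files, was matched for 9 of the 10 genes, all but Cyp24a1. Each window runs from 250 bases before to 50 after an annotated start. A called peak reached into such a window of a member at 2 starts, and these are shown because they are where binding and a member's promoter meet. Capitals mark hexamers of the receptor's recognition sequence. The forms searched, on both strands, were AGGTCA with the variant AGTTCA, then GGGTCA with the variant GGTTCA. Within these windows no hexamers overlapped. The first lies at chr1:74713285-74713584 and the second at chr1:167618015-167618314, both on the plus strand.
Cyp27a1: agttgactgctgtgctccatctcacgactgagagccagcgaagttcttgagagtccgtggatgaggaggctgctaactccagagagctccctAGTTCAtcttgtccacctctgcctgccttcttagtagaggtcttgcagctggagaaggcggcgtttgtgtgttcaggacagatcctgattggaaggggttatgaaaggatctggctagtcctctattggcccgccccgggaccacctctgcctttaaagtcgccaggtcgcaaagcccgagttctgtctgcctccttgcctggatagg
Rxrg: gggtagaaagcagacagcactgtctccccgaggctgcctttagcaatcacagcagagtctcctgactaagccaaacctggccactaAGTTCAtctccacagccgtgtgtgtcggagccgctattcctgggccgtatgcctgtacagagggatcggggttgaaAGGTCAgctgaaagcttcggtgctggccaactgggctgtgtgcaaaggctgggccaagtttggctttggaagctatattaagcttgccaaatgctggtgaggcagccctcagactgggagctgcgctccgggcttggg

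In the Cyp27a1 window the AGTTCA at bases 93 to 98 lay inside a normal-diet peak and outside the deficient-diet one. In the Rxrg window the AGGTCA at bases 163 to 168 lay inside the deficient-diet peak, while the AGTTCA at bases 87 to 92 lay outside it. Of the 14 promoter windows of the members, 10 held at least 1 of the hexamers (71.4%), beside 43.7% of 32851 RefSeq promoter windows of the same length. Neighbouring Dhcr7 windows overlap and count 1 of the hexamers in both. None of the 14 held a pair of these hexamers in 1 orientation with 3 bases between them, a pair found in 0.0396% of all windows. So rare a pair would be missing from almost any 14 windows, so its absence says little about the members. Other forms of the hexamer were not searched.

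Vdr, which encodes the receptor, spans 97854427 to 97908296 on chromosome 15 and is read from the minus strand. Its 4 normal-diet summits inside the span had pileups of 14, 14, 19 and 19 fragments, and its 2 deficient-diet summits had 22 and 24. The pair of normal-diet summits with 14 also lay in the span of Gm33690. One site was called in both lists, 23.5 kb into the gene, with summits 28 bp apart. Its pileup was 19 fragments, an enrichment of 7.16, in the normal-diet list (95% Poisson interval 4.31 to 11.2) and 22, an enrichment of 4.09 (2.56 to 6.19), in the deficient-diet list.

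The deficient-diet list also had a Vdr summit 283 bp downstream of the annotated start, with 24 fragments and an enrichment of 4.46. The local background there was 1.44 times the genome-wide one, and the authors' fold over local background was 2.85. The nearest normal-diet summit to it lay 5621 bp away, upstream of the gene. The strongest normal-diet peak inside Vdr, from 97892148 to 97892337 with a -log10 q of 6.98, had its nearest deficient-diet summit 7412 bp away. Beyond the low-coordinate end, 4 normal-diet and 5 deficient-diet summits lay in Hdac7, a class II histone deacetylase gene, where 1 site was shared with summits 139 bp apart and pileups of 16 and 25. That shared peak was also the strongest deficient-diet one around Vdr, with a -log10 q of 5.75.

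Rxra, the retinoid X receptor of heart and liver, spans 27676445 to 27763319 on chromosome 2 and held more summits inside its span than any other member, 5 of the normal-diet list and 8 of the deficient-diet one. It had 2 shared sites. The first lay just past the annotated start, with summits 542 bp (normal diet) and 571 bp downstream, at 18 fragments (enrichment 6.78, interval 4.02 to 10.7) and 22 fragments (4.09, 2.56 to 6.19). Both peaks there stood on the genome-wide background. This was the shared site of the 3 retinoid X receptor genes that lay closest to an annotated start.

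The second shared Rxra site, near the end of the gene, had 15 and 21 fragments, and its summits lay 293 bp apart. In the deficient-diet list the strongest Rxra peak by -log10 q ran from 27752352 to 27752651. It had 29 fragments, an enrichment of 5.39, a -log10 q of 8.23 and rank 990 in its list. The nearest normal-diet summit to it, at 17 fragments, was 1316 bp away and the peaks did not overlap. Normal-diet peaks at Rxra reached a higher enrichment, up to 6.78. No neighbouring gene lay under any of the 19 peaks of the Rxra window.

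**Figure D2:**
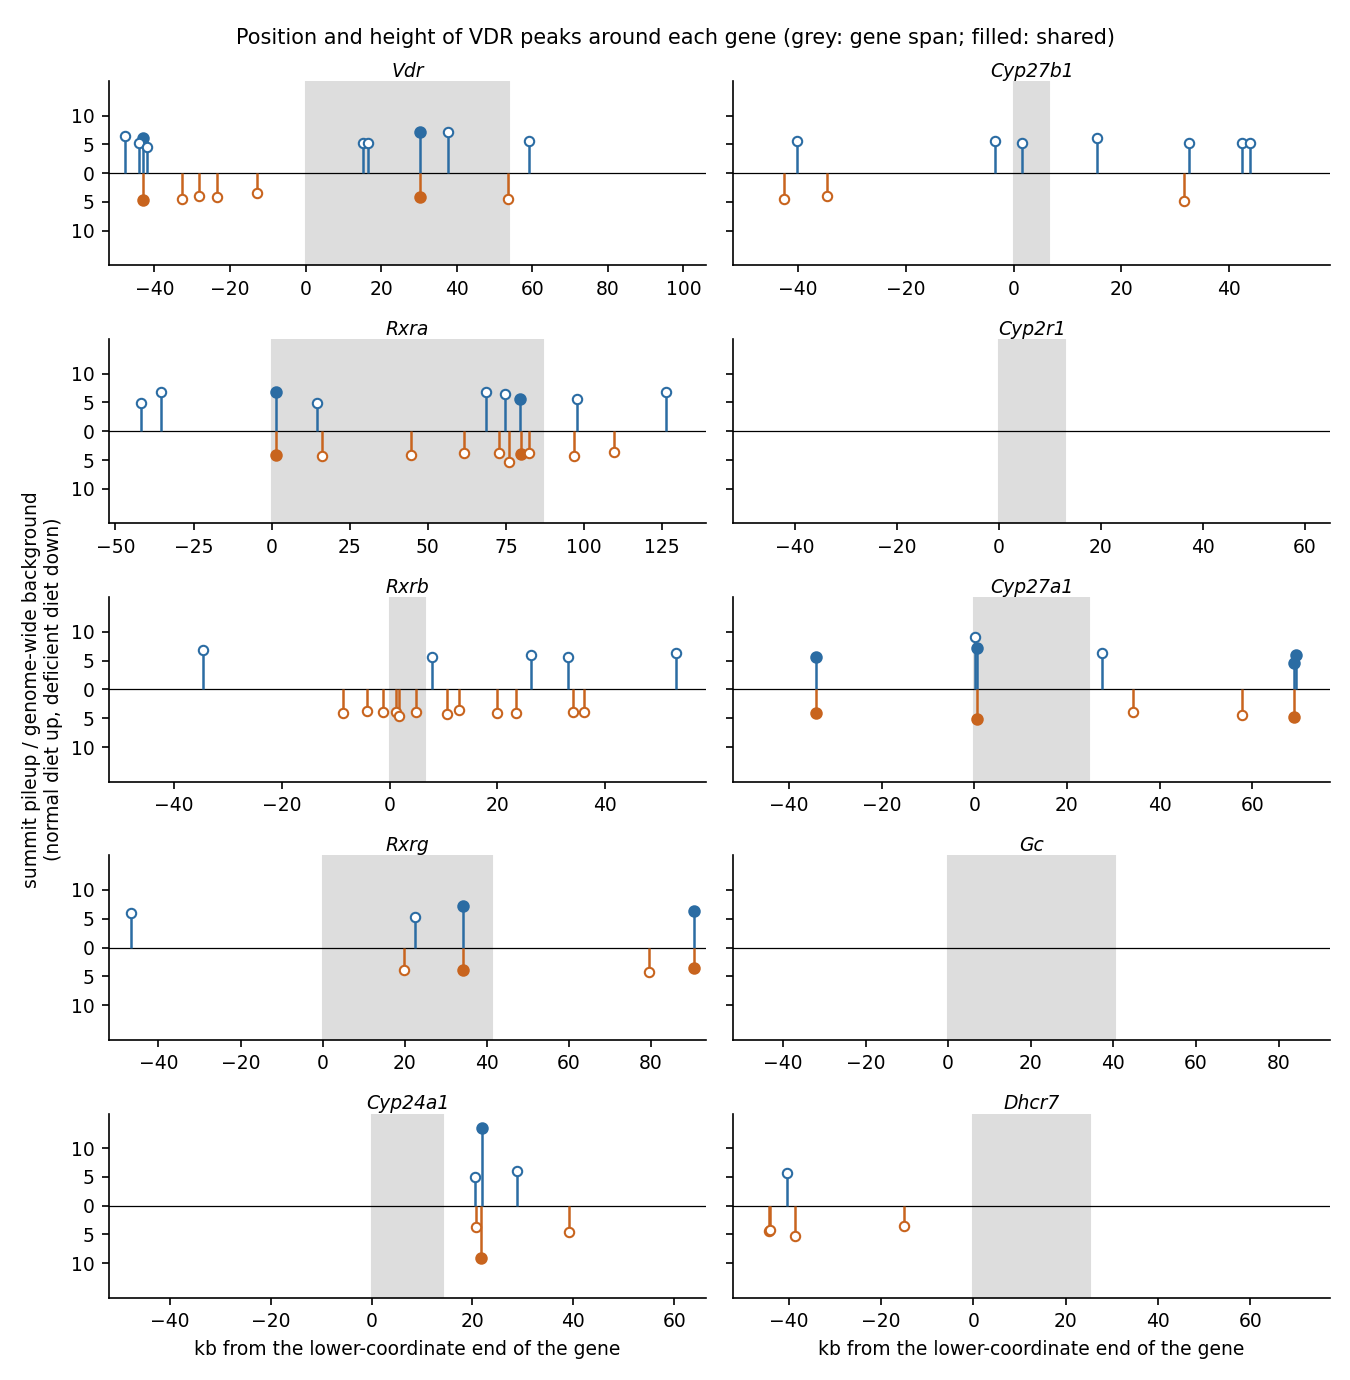
Summit positions (x axis, kb from the low-coordinate end of each gene) and enrichment (y axis, summit pileup over the genome-wide background) at the 10 genes, normal diet upwards in blue and deficient diet downwards in orange; grey marks the gene span and filled circles the peaks that overlap a peak of the other list. Peaks at Rxra lie mostly inside the gene, those at Cyp24a1 and Dhcr7 lie outside, and the tallest pair stands 7.6 kb beyond Cyp24a1.

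Rxrb, a retinoid X receptor gene of 6.59 kb in the major histocompatibility region of chromosome 17 (34031812 to 34038403), had no normal-diet summit inside and 3 deficient-diet ones, with 21, 25 and 21 fragments. The first of these lay 637 bp downstream of an annotated start. None of the 17 peaks around Rxrb was shared. Of the 12 deficient-diet peaks, 8 lay in other genes, among them Col11a2, a cartilage collagen gene, and Ring1, a Polycomb ubiquitin ligase gene.

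The Rxrb peaks of the deficient-diet list had 19 to 25 fragments, around that list's median of 22. At equal enrichment in the other library, 10 of the 12 would have had fewer than 11 fragments, the lowest pileup called there at the background level. The other 2 would reach it, as would 42.8% of unpaired peaks over the whole deficient-diet list. The shared deficient-diet peak at the Rxra start would also have had 10.8 by this scaling, yet its called normal-diet partner had 18. The comparison therefore cannot tell which Rxrb peaks the normal-diet library could have called. Why no normal-diet peak overlapped the Rxrb peaks was not tested. Keeping only peaks whose -log10 q was at least 5 left Rxrb with 1 in each list: a normal-diet peak 34.5 kb away in the histocompatibility gene H2-K1, and the deficient-diet peak of 25 fragments inside Rxrb.

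Rxrg, the retinoid X receptor of striated muscle and brain, spans 167598362 to 167639623 on chromosome 1 and had 2 summits inside the span in each list. A shared site 14 kb past the inner annotated start had 19 fragments for the normal diet (enrichment 7.16, interval 4.31 to 11.2) and 21 for the deficient diet (3.90, 2.41 to 5.96). The deficient-diet peak in the promoter printed above had its summit 2 bp from that inner start, with 21 fragments over a local background 1.44 times the genome-wide one. It was among the weakest of its list, with a -log10 q of 2.39 and rank 36697. The other shared site lay 49 kb beyond the gene, in Lmx1a, a homeobox gene, with 17 and 19 fragments.

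Cyp24a1, which inactivates the hormone, spans 170482957 to 170497145 on chromosome 2 and had no summit inside in either list. Beyond its high-coordinate end lay the site with the highest pileup and the highest -log10 q around the 10 genes in both lists, inside the span of the prefoldin subunit gene Pfdn4 and of the uncharacterised Gm16796. The normal-diet peak ran from 170504587 to 170505264, with its summit 7633 bp from Cyp24a1, and the deficient-diet peak from 170504577 to 170505053, with its summit 7587 bp away. The summits were 46 bp apart.

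At that site the normal-diet library had 36 fragments, an enrichment of 13.6 (interval 9.5 to 18.8), with a -log10 q of 11.7 and rank 363. The deficient-diet library had 49 fragments, an enrichment of 9.10 (6.73 to 12), with a -log10 q of 8.99 and rank 681. The local background was raised too, to 2.42 and 2.52 times the genome-wide level, and over it the site did not stand first. The authors' deposited fold over local background was 4.99 for the normal diet. Higher normal-diet folds were 6.84 and 5.39 at the Cyp27a1 start, 5.46 and 5.39 in Vdr, and 5.20 both at the Rxra start and beyond Rxra. In the deficient-diet list the fold of the site was 3.43, close to that list's median of 3.45. Among the higher deficient-diet folds were 4.70 in Rxra and 4.54 at the Cyp27a1 start. The position of the site is given from the ends of Cyp24a1, since the start and strand of that gene were not used here. The lists each had a smaller peak nearby, at 6306 bp from Cyp24a1 for the normal diet with 13 fragments and 6564 bp for the other with 20, and between these lay a gap of 19 bp. When a peak was kept only for its nearest protein-coding gene, Cyp24a1 had 0 peaks in both lists.

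Cyp27b1, which makes the active hormone, is a gene of 6.64 kb on chromosome 10 (127048246 to 127054884). It had 1 summit inside in the normal-diet list, 1483 bp downstream of its start, with 14 fragments and a -log10 q of 3.48. The nearest deficient-diet summit was 24996 bp away, in Agap2, with 26 fragments. No peak was shared among its 7 normal-diet and 3 deficient-diet peaks. Of these 10 peaks, 9 lay in neighbours, namely Avil, Mettl1, Cdk4 and Agap2, and none in either list reached a -log10 q of 5, the highest being 4.28 and 4.81.

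Cyp27a1, a mitochondrial hydroxylase that also acts in bile acid synthesis, spans 74713148 to 74737897 on chromosome 1 and had peaks in both lists at its start. In the normal-diet list 2 peaks flanked the annotated start. One summit lay 311 bp upstream, in a peak from 74713103 to 74713397 with 24 fragments, an enrichment of 9.05 (interval 5.80 to 13.5), a -log10 q of 11.4 and rank 374. The other lay 185 bp downstream, with 19 fragments and an enrichment of 7.16.

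The deficient-diet list had 1 peak at the Cyp27a1 start, from 74713447 to 74713828, with its summit 207 bp downstream. It had 28 fragments, an enrichment of 5.20 (3.46 to 7.52), a -log10 q of 7.59 and rank 1275. It overlapped the downstream normal-diet peak, with summits 22 bp apart, and began 49 bp past the end of the upstream one. By -log10 q the upstream peak stood highest, in either list, among peaks around the 10 genes that had no partner by overlap, and a deficient-diet summit stood 518 bp from its own. At equal enrichment the upstream peak would have had 48.7 fragments in the deficient-diet library. The local background at the 3 peaks was no more than 1.02 times the genome-wide one.

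Further from Cyp27a1, shared sites lay in Ttll4, a tubulin-modifying enzyme gene, with 15 and 22 fragments, and in the Wnt ligand gene Wnt6. At Wnt6 normal-diet peaks of 12 and 16 fragments both overlapped 1 deficient-diet peak of 26. Dhcr7, by contrast, had no summit inside its span (chromosome 7, 143823167 to 143848410) in either list. Its window held 1 normal-diet and 4 deficient-diet peaks, none of them shared, all in Mrgpre or in the NAD synthetase gene Nadsyn1. The normal-diet peak lay 40385 bp away with 15 fragments. The nearest deficient-diet peak lay 15003 bp away in Nadsyn1, with 19 fragments and a -log10 q of 2.26, and the strongest, in Mrgpre, had 28 fragments and a -log10 q of 5.76.

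**Figure D3:**
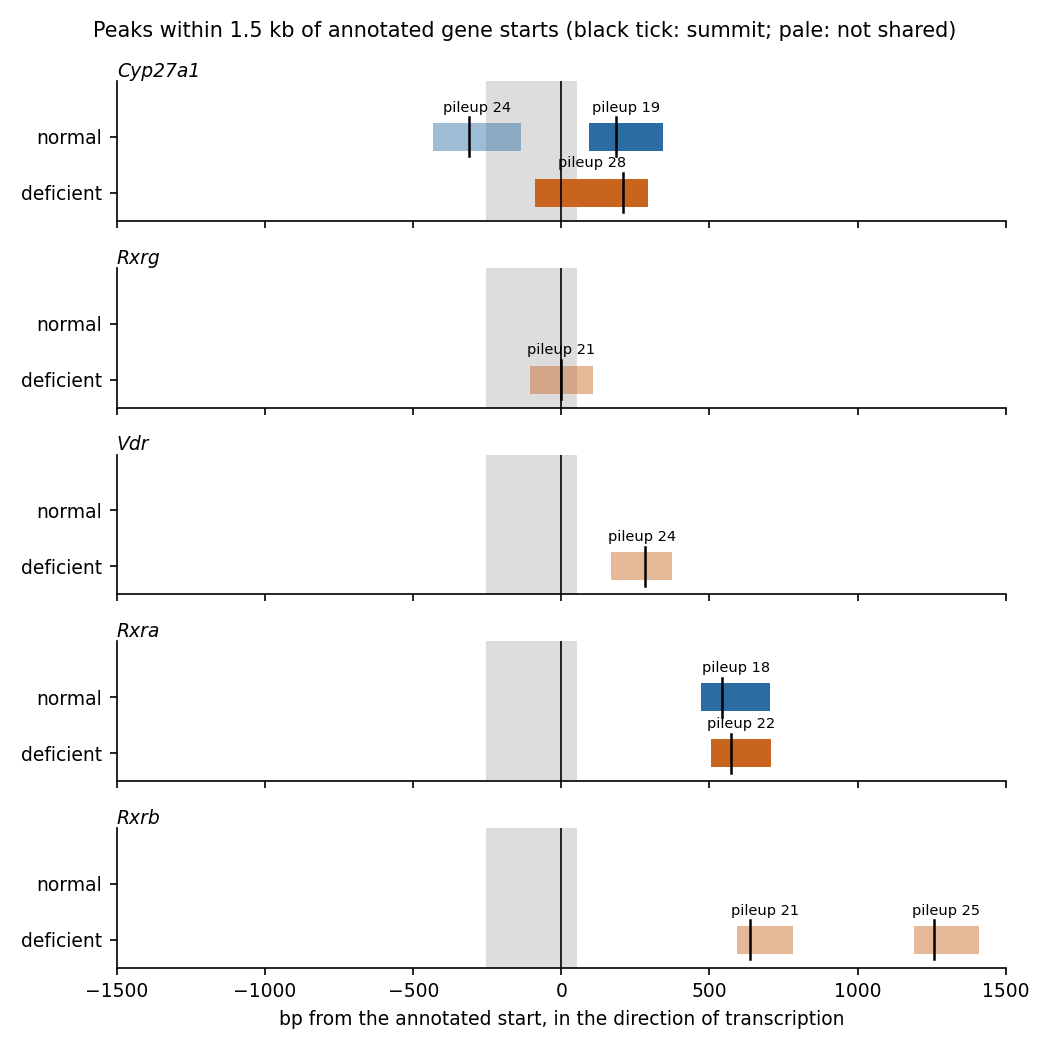
Called peaks near annotated starts (x axis, bp from the start in the direction of transcription) of the 5 genes with a summit within 1 kb; bars span each peak, blue for normal and orange for deficient diet, black ticks mark summits, pale bars have no overlap with the other list, numbers are summit pileups and grey marks the promoter window. Cyp27a1 and Rxra have peaks of both lists, and Vdr, Rxrb (its inner start) and Rxrg (its inner start) only deficient-diet peaks.

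Of the 9 genes matched in the promoter table, which gave the starts used here, Rxra and Cyp27a1, 2 in all, had a normal-diet summit within 1 kb of it (background 17.1%). A deficient-diet summit was found there at 5 genes: Vdr, Rxra, Rxrb, Rxrg and Cyp27a1 (background 18.8%). Both lists had one at 2 genes (background 7.2%). This measure was added after the results were seen. The order of the lists depended on the threshold: among peaks with a -log10 q of at least 5 it was 2 genes against 1, and with lists of equal length 2 against 3.

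Peaks were shared between the lists, by an overlap of at least 1 bp, at 5 of the 10 genes: Vdr, Rxra, Rxrg, Cyp24a1 and Cyp27a1 (background 43.1%). Inside the span it was 4 genes, those without Cyp24a1 (background 14.9%). The shared share was 25% of the 44 normal-diet peaks (exact 95% binomial interval 13.2 to 40.3%) and 20.8% of the 48 deficient-diet peaks (10.5 to 35%). Both intervals hold the value of the whole list, 34.0% and 21.3%. Among peaks with a -log10 q of at least 5, 2 genes kept a shared site, Cyp24a1 and Cyp27a1.

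At shared sites the deficient-diet enrichment was mostly the lower one. It was lower in 10 of the 11 pairs formed by the normal-diet peaks, and the ratio of deficient to normal enrichment had a median of 0.690, from 0.545 at the Rxrg site to 1.07 at the weaker Wnt6 peak. Over all 7981 pairs the median was 0.696, with 97.8% below 1, so the member sites stood where the lists stood as a whole. The lists themselves differ in this direction. Median enrichment was 6.03 over all normal-diet and 4.09 over all deficient-diet peaks, and the lowest called at the background level was 4.15 and 2.97. The ratio therefore cannot be read as weaker binding under the deficient diet, which was not tested. The counting interval of the ratio takes the background as fixed and does not allow for summits picked by peak calling. Within a pair the summits lay up to 389 bp apart. No pair's counting interval for the ratio excluded 1. At the Cyp24a1 site it ran from 0.427 to 1.06 and at the Cyp27a1 start from 0.391 to 1.38.

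**Figure D4:**
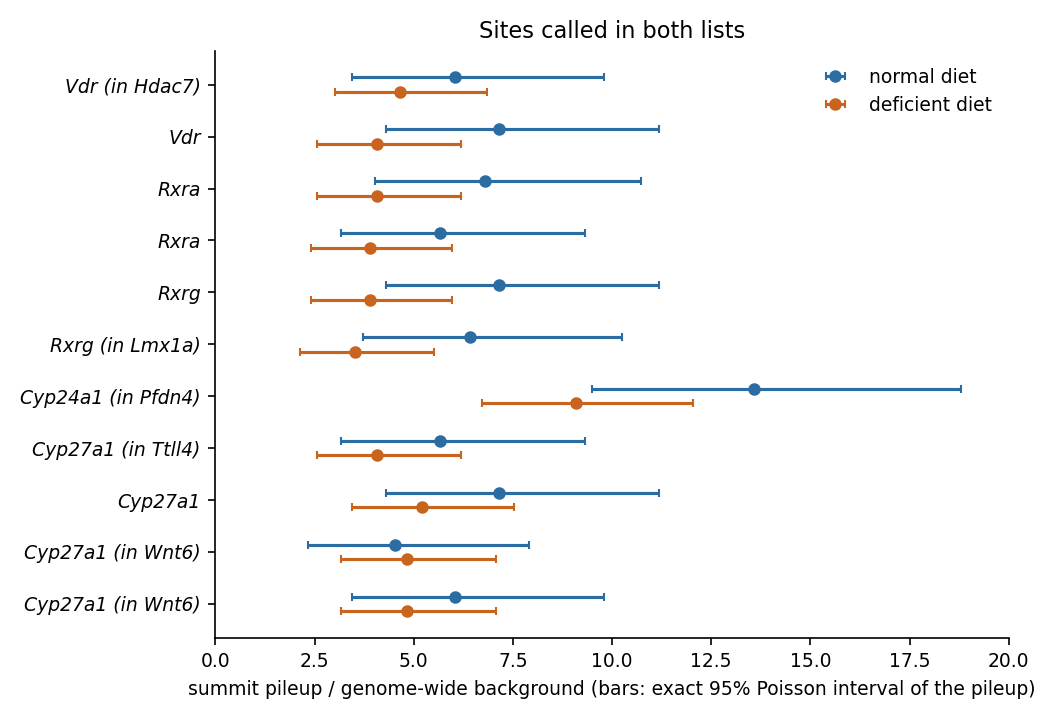
Enrichment (x axis, summit pileup over the genome-wide background) at the 11 pairs of overlapping peaks (y axis, by gene and, in brackets, the gene in which the site lies), blue for normal and orange for deficient diet; bars are exact 95% Poisson intervals of the pileup. The Cyp24a1 site is the tallest in both libraries, at 13.6 and 9.10, and the intervals of each pair overlap.

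Of the 38 deficient-diet peaks without a partner, 15 would at equal enrichment have reached the lowest normal-diet pileup of 11 fragments and 23 would not. Over the whole deficient-diet list 42.8% of such peaks would. All 33 normal-diet peaks without a partner would have reached the lowest deficient-diet pileup of 16, as does 100% of that class in the whole list, since the normal-diet threshold is the higher in enrichment. The unpaired deficient-diet peaks that would reach 11 fragments include those at the Vdr start and the Rxra peak of 29 fragments. Those that would not include the ones at the Rxrb and Rxrg starts. The 11 fragments apply at the genome-wide background, and the local background at the Vdr start was 1.44 times that. Shared deficient-diet peaks also fell on both sides of 11 fragments. Those at the Rxra start and inside Rxrg would have had 10.8 and 10.3, yet their called normal-diet partners had 18 and 19. Those near Cyp24a1 and at the Cyp27a1 start would have had 24.1 and 13.8. The comparison therefore cannot tell which unpaired peaks the normal-diet library could have called.

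In strength the members' peaks resembled their lists. The median -log10 q was 4.28 beside 4.49 for the normal diet, and 3.95 beside 3.95 for the deficient diet. The median pileup was 15.5 beside 16 fragments, and 22 beside 22. A -log10 q of at least 5 was reached by 29.5% of the normal-diet peaks (whole list 35%) and 16.7% of the deficient-diet peaks (24.3%). Among the strongest 1000 of each list by -log10 q were 2 and 2: at Cyp24a1 and upstream of Cyp27a1 for the normal diet, and at Cyp24a1 and in Rxra for the deficient diet.

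**Figure D5:**
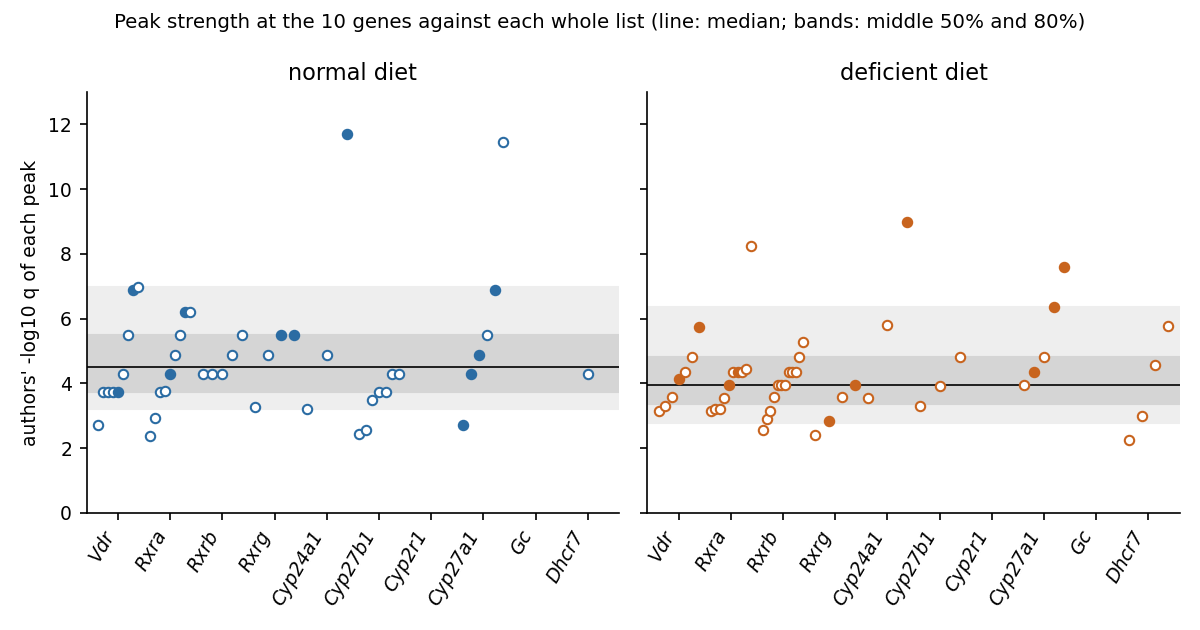
The authors' -log10 q (y axis) of every peak at the 10 genes (x axis), normal diet left and deficient diet right, filled where the peak overlaps one of the other list; the line is the whole list's median and the grey bands hold its middle 50% and 80%. Above the bands stand the site near Cyp24a1 in both panels, the peak upstream of Cyp27a1 for the normal diet, and a peak in Rxra and the Cyp27a1 start for the deficient diet.

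Among 23 other genes of the pathway, 18 had a normal-diet and 19 a deficient-diet peak by the same rule, 17 both and 14 a shared one (background as above, 74.5%, 82.9%, 69.0% and 43.1%). Sc5d and Ebp, enzymes of late sterol synthesis, and Pth, the parathyroid hormone gene, had none in either list. A shared site inside the span was found at 6 (background 14.9%), among them the coactivator gene Ncoa2, the corepressor gene Ncor1, the hormone gene Fgf23, the receptor gene Fgfr1 and Kl, which encodes the FGF23 co-receptor Klotho. The tallest shared site in these named genes was that in Ncoa2, with 18 fragments (enrichment 6.78) in the normal-diet library, against 30 (5.57) in the other. At Fgf23, a bone hormone gene that lowers Cyp27b1 and raises Cyp24a1 in kidney, the shared site had 17 and 22 fragments. At Kl the normal-diet peak, from 150952942 to 150953615 on chromosome 5, had 17 fragments and overlapped 2 deficient-diet peaks, of 22 and 20 fragments. Ugt1a1, a glucuronidation gene singled out after its values were seen, had 23 and 33 peaks in its window, 20 and 17 of them shared, none of the shared ones inside the gene.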

How the data were processed

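VDR ChIP-seq peaks of 2 samples were analysed. The authors deposited 1 narrowPeak list per sample on mm10, per the file headers; MACS2 and SAMtools are named in the submitters' processing notes, while aligner, threshold and control library are not given in the sources used here. Per the file headers' layout, each peak has a fold enrichment (a ratio over local background), a -log10 p and a -log10 q. The deposited score was not used. In the normal-diet list the end and score, joined by a point, were split, and 1 line without a start was left out. The summit is the start plus the deposited offset, and positions are counted from 1.

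Pileup and background were solved from the deposited fold and -log10 p with Poisson tails (largest misfit 0.000293), after a test on simulated data; the lowest background was read as genome-wide. No header states this reading. Gene spans and starts are RefSeq, GRCm38.p6; exons and introns were not used. Shared means an overlap of at least 1 bp, and a pair joins a normal-diet peak to the overlapping peak with the nearest summit. Intervals are exact binomial or Poisson. Peaks given in full are shared ones, those near starts or gene ends, and the strongest and nearest per gene. Of the other pathway genes, those with a shared site inside the span are named, except 1 that is not reported here. The members and lists were chosen with earlier results of these data known. Python 3.11.15, numpy 2.4.6, pandas 2.3.3 and scipy 1.17.1 were used. The closing section gives the alternatives.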

Additional observations from a re-analysis of the deposited data

How the results depend on the processing

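The 14 main results were recomputed 62 times. By the measure fitting each (1.5 times for counts, the binomial interval for shares, the spread of pairs for the ratio) 40 of these values held and 22 moved. Smaller or larger windows and shorter lists change counts by construction. A 10 kb window left 21 normal-diet and 25 deficient-diet peaks, and a 100 kb window gave 87 deficient-diet peaks. Peaks with a -log10 q of at least 5 numbered 13 and 8, 7 and 3 of them inside a member, with a shared site at 2 genes, a deficient-diet peak at 11 of the other pathway genes and a deficient-diet summit near a start at 1 member. Lists of equal length left 30 deficient-diet peaks, 10 inside a member, and 3 members with a summit near a start. Summits within 100 bp gave shared shares of 11.4% and 10.4%. The nearest-gene rule left 20 and 18 peaks at 5 and 5 members. Starts within 500 bp were met at 1 and 3 members, and 3 kb gave 4 for the normal diet; both settings, and all those for starts and for the ratio of enrichments, were chosen after seeing the data. Of 100 recomputed counts for single members, 52 moved. No paired analysis was possible because there is a single library per diet, for which reason none could be left out either. The higher enrichment needed for a normal-diet call limits what the lack of a normal-diet peak shows.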
